A study of Homo sapiens with 6 samples.

Results

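Nuclear pore and nuclear transport genes were followed in the long-established glioblastoma line U-87 MG after exposure to targeted electromagnetic fields. The members were taken by a rule on gene symbols in the array's annotation, a rule that uses no measured value but was written with earlier results of these data known: symbols that start with NUP and a digit, IPO, XPO, KPNA, KPNB or TNPO, and a short list of further pore and Ran genes. This gave 52 of 14884 named genes, of which 50 code for proteins. The other 2 are NUP210P1, a pseudogene, and NUP50-DT, a noncoding transcript that starts next to NUP50. Both the prefixes and the listed names reach further genes, such as RAN, RCC1, TPR, AAAS, XPO1, XPOT, KPNA2 and NUP62, which were not analysed here.

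The nuclear pore is a large ring of proteins, the nucleoporins, that crosses the nuclear envelope. An outer ring (the Y complex) and an inner ring form its scaffold, membrane proteins anchor it, and flexible proteins rich in phenylalanine and glycine fill the channel. Import receptors (importins) and export receptors (exportins) carry cargo through that channel, and the small GTPase Ran, bound to GTP in the nucleus and to GDP in the cytoplasm, gives the traffic its direction. In dividing cells the pores are taken apart and rebuilt at each mitosis.

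The 3 exposed arrays came from independent cultures kept for 54 h in a culture box inside a Faraday chamber, in continuous fields (RGFIELDS) aimed at miR-381, a mutated alpha-kinase 2 gene, HSP70 and CHI3L1. The 3 unexposed arrays came from cultures kept in a box outside the chamber, with the same gas supply and temperature. All dishes were seeded 24 h before they were allocated at random to a box. Field and box differ together, so the 2 cannot be told apart in any difference given here. RNA from whole cultures of a single line was measured on 1-colour Affymetrix arrays. All values are log2 expression, and a change is the exposed mean minus the unexposed mean, so a change of -1 is a halving.

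The arrays resembled each other closely, with correlations over all probe sets of 0.982 to 0.988 and medians of 3.96 to 3.99. Of the glioma and U-87 MG markers that were measured, vimentin (VIM) was at 10.5 and tenascin C (TNC) at 11.7 in exposed cells. The glial and neural progenitor markers GFAP (5.21), OLIG2 (4.42) and SOX2 (3.62) were lower, SOX2 under the median of all probe sets of 3.96. The progenitor marker nestin (NES) was at 6.79. CD44 was at 8.87, CHI3L1 at 8.88, S100A6 at 6.54 and THY1 at 5.20. None of the 10 measured genes of that list passed the test. GFAP came closest, with a change of 0.35 (limma adjusted p = 0.143). Among markers of other cell types, MAP2 rose, by 0.91, and the others did not pass: 3 of 7 leukocyte genes, 3 of 4 endothelial genes, 4 of 5 epithelial genes, 2 of 5 neuronal genes including MAP2, and the liver genes ALB and APOA1 were measured. The mean level of the 3 leukocyte genes was 6.57 to 6.64 in unexposed and 6.75 to 6.81 in exposed arrays, and that of the neuronal pair 5.17 to 5.34 and 5.71 to 5.77. For endothelial genes it was 3.80 to 4.16 and 4.08 to 4.23, and for epithelial genes 5.40 to 5.49 and 5.46 to 5.60. The leukocyte mean combines unlike genes. CD68 was at 12.2 in unexposed and 12.3 in exposed cells, CD4 at 4.63 and 4.74, and CD14 at 2.97 and 3.33. In the neuronal pair SYN1 changed by 0.0076, so its shift was that of MAP2. The part of these markers in the results below was not tested.

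In exposed cells the scaffold genes NUP188 and NUP155 fell and the transport receptor gene IPO13 rose, while the other 49 members did not pass. NUP188 changed by -0.48 (SE 0.07) to 0.717 of its unexposed level, NUP155 by -0.40 (SE 0.06) to 0.755, and IPO13 by 0.40 (SE 0.08), or 1.32-fold. These 3 of 52 members are 5.77%, beside 3.06% of all genes tested (limma, Benjamini-Hochberg adjusted p under 0.05). In 1 direction, 2 members fell, beside 1.67% of all genes, and 1 rose, beside 1.4%. All genes include many dim ones, while 47 of the 52 members lay above the median level of all probe sets. With dim probe sets left out, 4 of 47 members passed, with XPO6 added, beside 7.03% of 10712 genes. Without exposed replicate 3, NUP188, NUP155 and IPO13 also passed. With any other array left out, none of them passed, and in 4 of those 5 settings no gene on the array did in limma, with 2065 to 2287 genes at an unadjusted p under 0.05. With ribosomal protein genes as the centre NUP188 alone passed, and with the spread modelled without a trend or without moderation no member did.

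Most members had small negative changes. The median over the 52 was -0.11, beside 0.0029 over all genes, and 40 members (76.9%) had a negative value, beside 49.3% of all genes. That number was 36 after a further quantile normalization, 41 with arrays centred on their medians and 28 when 45 ribosomal protein genes set the centre of each array. The last setting moved the median of all genes to 0.0944 and that of the members to -0.0210. It shifts every gene by the same amount, so the gap between these medians is fixed by its construction. An unadjusted p under 0.05 was reached by 14 members with lower values (26.9%, beside 10.2% of all genes) and by 1 with higher values (1.92%, beside 8.71%). In 22 members (42.3%) every exposed array lay below every unexposed array, beside 13.8% of all genes, and in 4 (7.69%) every exposed array lay above, beside 13.2%. The shares over all genes include dim genes and were not matched to the level of the members. Members vary together across arrays, so these counts are not counts of independent events, and they describe the members without a test of the group. In cultures measured as a whole, fewer cells with a transcript and less of it per cell cannot be told apart.

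Mitotic genes had lower values in exposed cells. Of 22 measured mitosis genes 12 fell (54.5%, beside 1.67% of all genes), from CDC20, which activates the anaphase-promoting complex (-0.41), to the spindle motor KIF11 (-0.63), none rose, and all 22 had negative values. The others that fell were MKI67 (-0.60), TOP2A (-0.46), CDK1 (-0.58), CCNB2 (-0.59), CCNA2 (-0.51), BUB1B (-0.52), PLK1 (-0.50), KIF23 (-0.47), PRC1 (-0.57) and CENPA (-0.52). Each of the 12 kept its sign in all 15 alternative settings. Those that change only the variance model, the block or the fitted probe sets cannot move a log2 change. The 12 genes passed in 5 to 8 of the 15 settings, and CDK1, CCNA2 and CENPA in none that left out an array (lowest limma adjusted p of 0.0653, 0.0577 and 0.0523). The mean level of the 22 genes was 8.38 to 8.66 in exposed arrays and 8.91 to 9.12 in unexposed arrays, with exposed replicate 2 the lowest and unexposed replicate 2 the highest. The same arrays stood out among pore and transport genes: exposed replicate 2 was the lowest of the 6 arrays in 23 of 52 members (44.2%, beside 22.3% of all genes), and unexposed replicate 2 the highest in 20 (38.5%, beside 23.1%). Most members were lower in exposed cells, so these shares partly restate the direction of change, for which those of all genes were not matched. NUP155 was lowest and highest in these arrays, while NUP188 was highest in unexposed replicate 1. IPO13, which rose, was lowest in unexposed replicate 2 and highest in exposed replicate 2. The mean level of the 5 inner ring genes was 8.50, 8.39 and 8.52 in exposed replicates 1, 2 and 3 and 8.74, 8.86 and 8.74 in unexposed ones. The median change of the members was -0.0773 without exposed replicate 2 and -0.0840 without unexposed replicate 2. The part of the mitotic genes in the changes of the members was not tested.

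**Figure D1:**
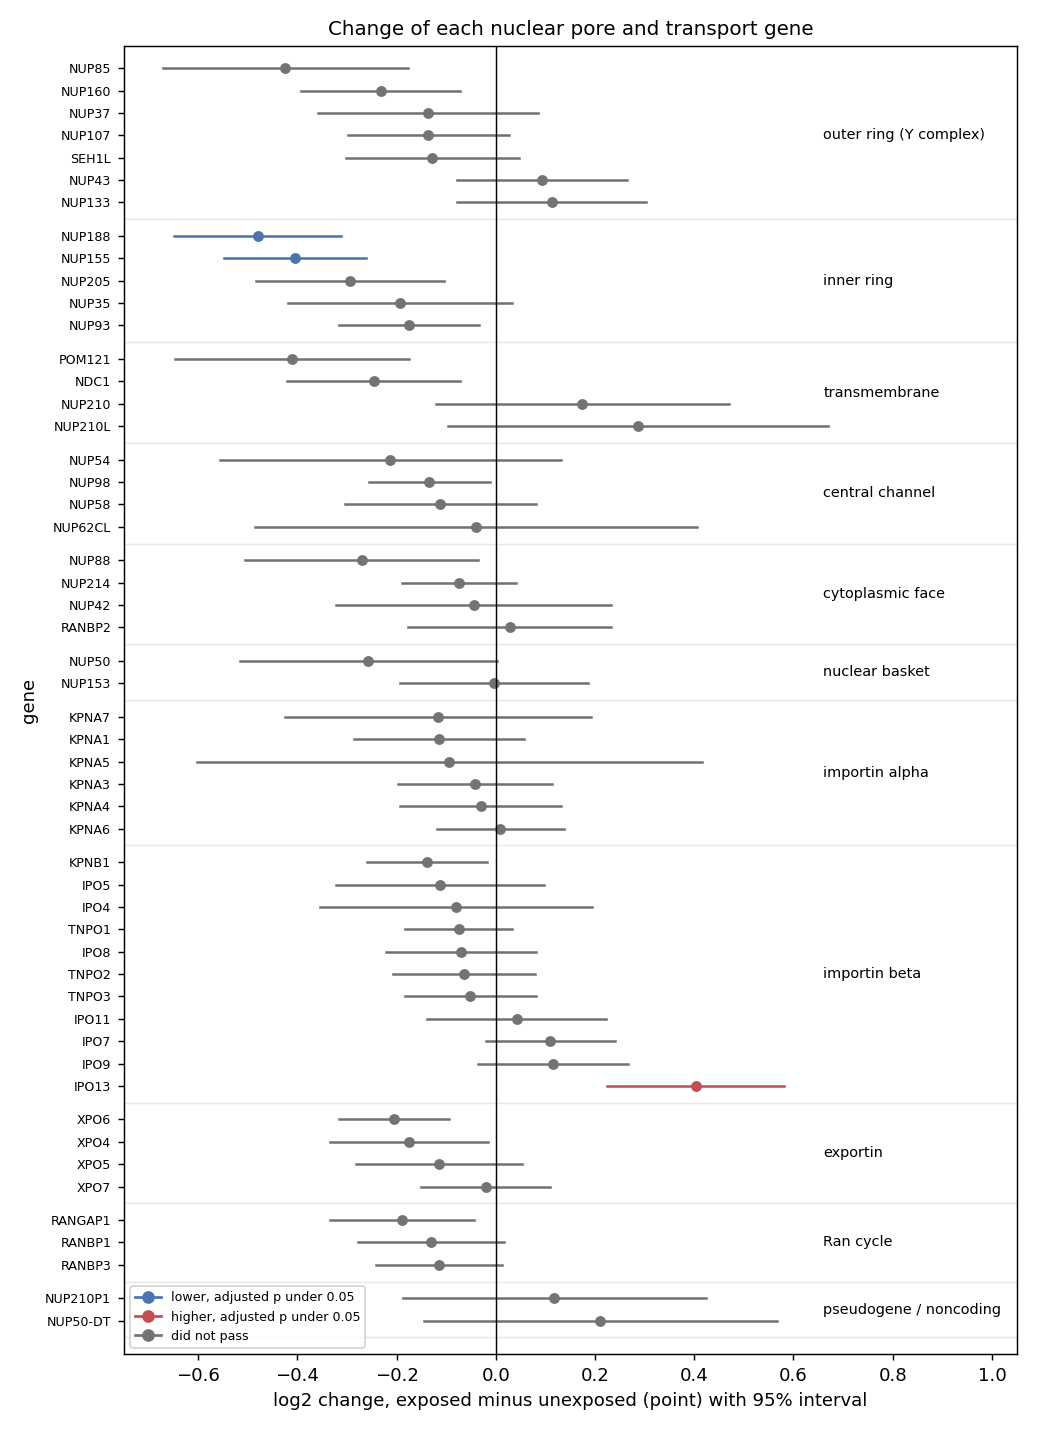
Log2 change (exposed minus unexposed, x axis) of each of the 52 members with its 95% interval, in role groups. NUP188 at -0.48 and NUP155 at -0.40 are the lower genes that passed, and IPO13 at 0.40 is the higher one. In all 40 points lie left of 0, and 28 do when ribosomal protein genes set the centre of each array.

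The promoters shown are those of the 3 members that passed the threshold in this fit. Each runs from 250 bases before to 50 after the start in RefSeq (GRCh38.p14), read along the gene's strand. They are reference sequence, not that of U-87 MG. NUP188 lies at chr9:128947449-128947748 on the plus strand, NUP155 at chr5:37371057-37371356 on the minus strand and IPO13 at chr1:43946700-43946999 on the plus strand. Capitals mark matches to the motifs named after the sequences.
NUP188: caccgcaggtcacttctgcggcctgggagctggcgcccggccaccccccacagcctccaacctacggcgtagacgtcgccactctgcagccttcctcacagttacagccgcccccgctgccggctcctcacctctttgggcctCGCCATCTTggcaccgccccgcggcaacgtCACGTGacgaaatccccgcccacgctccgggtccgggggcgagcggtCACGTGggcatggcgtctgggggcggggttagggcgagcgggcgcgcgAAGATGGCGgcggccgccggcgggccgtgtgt
NUP155: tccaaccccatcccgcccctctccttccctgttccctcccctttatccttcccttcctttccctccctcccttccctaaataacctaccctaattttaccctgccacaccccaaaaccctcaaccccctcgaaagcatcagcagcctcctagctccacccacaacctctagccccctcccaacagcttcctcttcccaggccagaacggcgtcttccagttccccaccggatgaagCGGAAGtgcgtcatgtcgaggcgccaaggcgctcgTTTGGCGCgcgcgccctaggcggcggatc
IPO13: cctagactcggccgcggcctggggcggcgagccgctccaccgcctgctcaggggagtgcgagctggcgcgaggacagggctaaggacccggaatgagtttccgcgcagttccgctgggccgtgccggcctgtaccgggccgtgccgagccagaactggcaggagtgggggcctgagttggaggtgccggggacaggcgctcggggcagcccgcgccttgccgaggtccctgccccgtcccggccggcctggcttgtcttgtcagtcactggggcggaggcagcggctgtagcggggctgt

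A set of 7 motifs was searched on both strands, some of them picked after these sequences had been seen. NUP188 holds the E-box CACGTG at bases 174 and 221, and the YY1 motif AAGATGGCG at base 269 and, on the other strand, at base 144, counted from the 5′ end. NUP155 holds the ETS core CGGAAG at base 237 and the E2F motif TTTGGCGC at base 272. IPO13 has no match. Promoters of 44 of the 52 members were found, 57 sequences in all, and were set beside all 35116 RefSeq promoters of the same length. The E2F motif (TTTCCCGC, TTTGGCGC, TTTGCCGC or TTTCGCGC) was in 7.02% of member promoters and in 3.31% of all. The CHR, a motif of mitotic genes (TTTGAA), was in 22.8% and 15.2%, the CCAAT box in 43.9% and 34.6%, and the ETS core in 33.3% and 19.5%. NRF1's motif GCGCATGCG was in 8.77% and 1.92%, the E-box in 12.3% and 7.26% and the YY1 motif in 7.02% and 1.75%. The member shares of the rarer motifs rest on 4 promoters for E2F, 5 for NRF1, 7 for the E-box and 4 for YY1. Those of E2F, ETS, E-box and YY1 include promoters shown above, seen before some motifs were picked. The shares therefore describe these promoters and test nothing, and the 35116 were not limited to genes measured here. Motifs do not overlap within the sequences shown. Member promoters were also richer in G and C, with a median of 63.3% beside 58.7%, and several of these motifs are rich in them. A match is a run of letters and was not tested as a binding site.

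The inner ring, which lines the channel and holds the pore's other parts together, had the most calls of any role group. Of its 5 members 2 fell (1.67% of all genes did) and 3 did not pass. All 5 had negative changes under each normalization tried, with a median of -0.29, beside 49.3% of all genes with a negative change. All 5 also had every exposed array below every unexposed array, beside 13.8% of all genes. NUP188, a large scaffold protein of the inner ring, was at 9.25, 9.08 and 9.33 in exposed replicates 1, 2 and 3 and at 9.73, 9.70 and 9.67 in the unexposed ones. The unexposed arrays were close to each other, and the lowest of them was above the highest exposed array. The 95% interval of its change of -0.48 ran from -0.65 to -0.31 (limma adjusted p = 0.0298).

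NUP155, which joins the scaffold to the membrane, was at 9.60, 9.46 and 9.50 in exposed and at 9.88, 10.01 and 9.89 in unexposed arrays. Its groups were apart as well, and the change of -0.40 had 95% bounds of -0.55 and -0.26 (limma adjusted p = 0.0298). NUP205, the structural relative of NUP188, was at 9.20, 8.97 and 9.19 in exposed and at 9.32, 9.50 and 9.42 in unexposed arrays. Exposed replicate 2 was its lowest array and unexposed replicate 2 its highest. Its change of -0.29 (interval -0.48 to -0.10) did not pass (limma adjusted p = 0.0995). NUP93, which recruits NUP188 and NUP205 into the ring, was at 8.53, 8.48 and 8.58 in exposed and at 8.68, 8.76 and 8.66 in unexposed arrays. Its change was -0.18, bounded by -0.32 and -0.03 (limma adjusted p = 0.169). NUP35, a small membrane-binding partner of NUP155, was at 5.91, 5.98 and 5.99 in exposed and at 6.10, 6.31 and 6.04 in unexposed arrays. Its groups were the closest of the 5, and its change of -0.19 did not pass (limma adjusted p = 0.343) and was -0.11 without unexposed replicate 2.

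**Figure D2:**
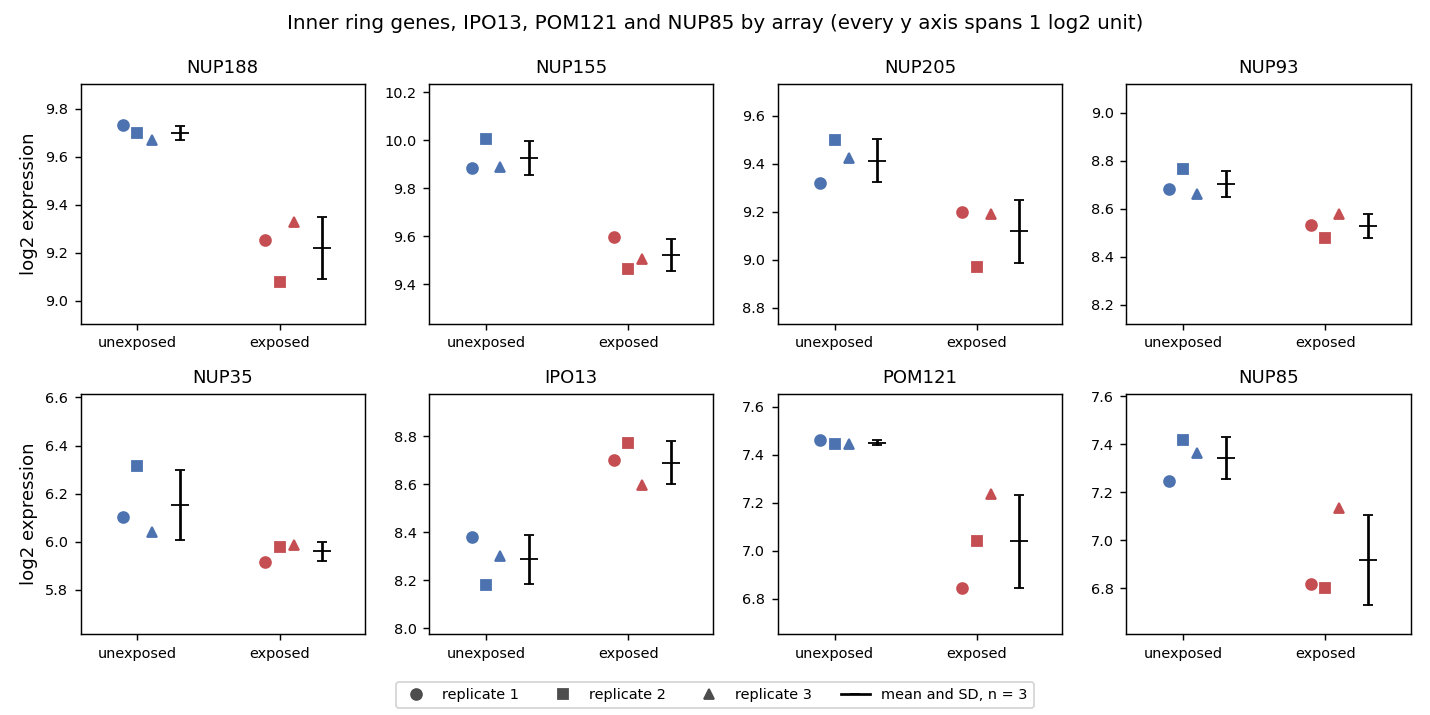
Log2 expression by array for the 5 inner ring genes and for IPO13, POM121 and NUP85. Symbols are replicates, bars are mean and SD (n = 3), and each y axis spans 1 log2 unit. The 3 genes beyond the inner ring were picked after their values were seen. The groups do not overlap in the 7 lower genes (13.8% of all genes are like this) or in IPO13, which is higher (13.2%).

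Of the 7 measured outer ring genes none passed (3.06% of all genes did), while 2 had an unadjusted p under 0.05 with lower values, beside 10.2% of all genes. NUP85, in an arm of the Y, had a change close in size to that of NUP155 but a wider spread. It was at 6.82, 6.80 and 7.14 in exposed and at 7.25, 7.42 and 7.36 in unexposed arrays. Exposed replicate 3 stood closer to the unexposed arrays than the other 2 did, and the change of -0.42 (SE 0.11) did not pass (limma adjusted p = 0.0758). Without that array the change was -0.53 and passed (limma adjusted p = 0.0397). NUP160, in the other arm, was at 8.44, 8.32 and 8.38 in exposed and at 8.53, 8.71 and 8.59 in unexposed arrays, a change of -0.23 (limma adjusted p = 0.120).

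The remaining Y complex members differed in sign. NUP107 (-0.14), NUP37 (-0.14) and SEH1L (-0.13) were negative, and NUP43 (0.09) and NUP133 (0.11) positive, each with an interval that spans 0. NUP107 and NUP133 are direct partners in the stem of the Y. NUP107 was at 7.69, 7.69 and 7.76 in exposed and at 7.77, 7.94 and 7.84 in unexposed arrays, and NUP133 at 7.06, 6.84 and 6.91 and at 6.82, 6.78 and 6.87. Among these 5 genes NUP107 alone had groups without overlap, and 13.8% of all genes were lower in this way. AHCTF1 (ELYS), which seeds pore assembly on chromatin, lies outside the symbol rule. Its change was -0.17 and did not pass (limma adjusted p = 0.151).

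Among the membrane anchors no gene passed, beside 3.06% of all genes. POM121 was at 6.85, 7.04 and 7.24 in exposed and at 7.46, 7.45 and 7.45 in unexposed arrays. The unexposed arrays were nearly equal and the exposed ones spread widely, and the change of -0.41 (SE 0.10) did not pass (limma adjusted p = 0.0737). It was -0.31 without exposed replicate 1, and it passed without exposed replicate 3 (-0.51, limma adjusted p = 0.0439). POM121 has near-identical copies in the genome, so its signal is uncertain as to the copy. The copy POM121C had a change of -0.61 that did not pass (limma adjusted p = 0.221) and was -0.31 without exposed replicate 3.

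NDC1, a membrane protein needed for pore assembly, was at 9.28, 9.09 and 9.34 in exposed and at 9.52, 9.51 and 9.43 in unexposed arrays. Its groups did not overlap, and its change was -0.25 (interval -0.42 to -0.07, limma adjusted p = 0.125). NUP210 and its relative NUP210L were the membrane genes with positive changes, of 0.17 and 0.29. NUP210L and the pseudogene NUP210P1 (0.12) are dim, as are NUP210, KPNA7 and NUP62CL: these 5 members lay at or under the median of all probe sets of 3.96, where a signal is hard to tell from background. TMEM33, the relative of a yeast pore membrane protein, lies outside the rule and was at -0.09.

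Channel, filament and basket genes had changes between -0.27 (NUP88) and 0.03 (RANBP2), and none of these 10 members passed, beside 3.06% of all genes. NUP98, a channel nucleoporin whose transcript also encodes the outer ring protein NUP96, was at 8.98, 8.91 and 8.96 in exposed and at 9.09, 9.08 and 9.07 in unexposed arrays. These arrays were apart by a small margin, with a change of -0.13 (limma adjusted p = 0.224). The channel genes NUP54 (-0.21) and NUP58 (-0.11) and the NUP62 relative NUP62CL (-0.04) had intervals that span 0.

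At the cytoplasmic face NUP88 had a change of -0.27, with exposed arrays at 8.44, 8.39 and 8.65 and unexposed arrays at 8.69, 8.95 and 8.66. The groups all but touch, unexposed replicate 2 stands above the rest, and without it the change was -0.18. NUP214, the partner of NUP88 and a docking site for exportins, was at -0.07, and its dimmer second probe set at -0.06. RANBP2, the large filament protein that binds Ran and attaches SUMO, was at 0.03, and it has a family of near-identical copies that make its signal uncertain. NUP42, which binds the export factor GLE1, was at -0.04. The mRNA export factors RAE1 (-0.17) and GLE1 (-0.07), outside the rule, did not pass either. At the nuclear basket NUP50, a cofactor of importin alpha, had a change of -0.26 (limma adjusted p = 0.268) with exposed arrays at 4.92, 4.70 and 4.95 and unexposed arrays at 5.04, 5.13 and 5.18. NUP153, a basket protein that anchors to the ring, was at -0.0039, between bounds of -0.19 and 0.19. The noncoding NUP50-DT, which starts beside NUP50, was at 0.21, between bounds of -0.15 and 0.57.

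**Figure D3:**
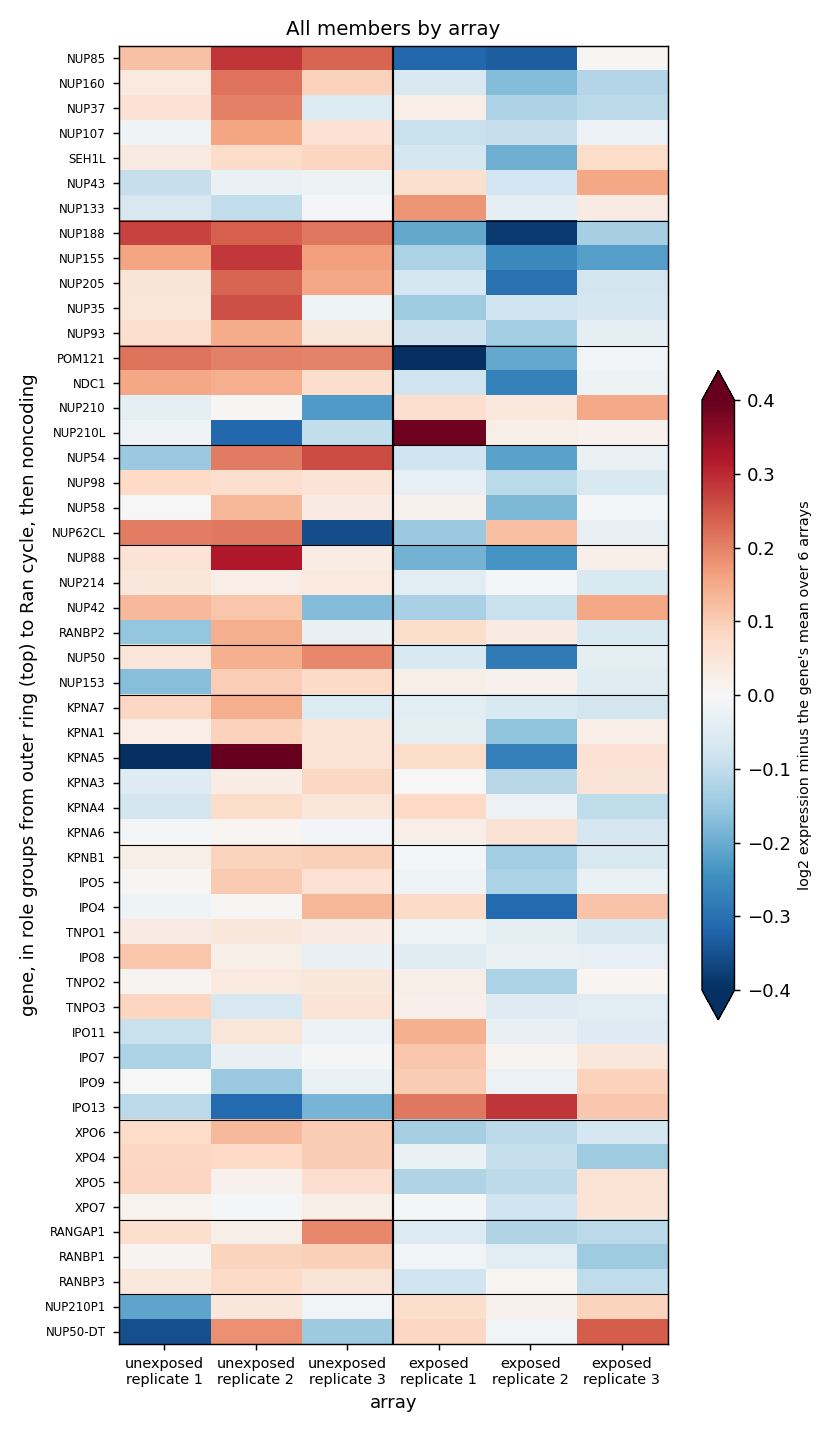
Log2 expression of the 52 members in each array, minus each gene's mean over the 6 arrays (colour, saturated beyond 0.4), in the same role order as the plot of changes. Exposed replicate 2 is the lowest array in 23 genes and unexposed replicate 2 the highest in 20, and the inner ring block is blue in all exposed arrays. Most members are lower in exposed cells, so these counts partly restate the direction of change.

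Importins alpha, the adaptors that recognise the classical nuclear localisation signal, showed no call, beside 3.06% of all genes. None had groups that were apart, while 13.8% of all genes were lower and 13.2% higher without overlap. All 6 measured members had changes between -0.12 and 0.0088. The bounds were -0.20 and 0.11 for KPNA3 (-0.04), -0.19 and 0.13 for KPNA4 (-0.03), and -0.12 and 0.14 for KPNA6 (0.0088). Changes as large as that of NUP188 lie outside them. KPNA1 was at -0.11, between -0.29 and 0.06. KPNA5 was the most variable member, with unexposed arrays at 5.55, 6.47 and 6.02, and its change of -0.09 had bounds of -0.60 and 0.42. KPNA7, known from oocytes and early embryos, was dim (-0.12). KPNB1, the importin beta that carries the adaptors through the pore, was at 11.85, 11.71 and 11.78 in exposed and at 11.87, 11.94 and 11.94 in unexposed arrays. Its groups were close but did not overlap, and its change was -0.14 (interval -0.26 to -0.02, limma adjusted p = 0.199).

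Among the 11 importin beta-type receptors IPO13 rose, beside 1.4% of all genes, and the other 10 did not pass. IPO13 works in both directions, bringing splicing-related proteins into the nucleus and taking a translation factor out. It was at 8.70, 8.77 and 8.60 in exposed and at 8.38, 8.18 and 8.30 in unexposed arrays. The lowest exposed array was above the highest unexposed one, and the change of 0.40 had 95% bounds of 0.22 and 0.58 (limma adjusted p = 0.0401).

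The next positive values among these receptors were those of IPO9 (0.12), which carries histones and actin, and IPO7 (0.11), which carries ribosomal proteins. IPO7 was at 10.30, 10.21 and 10.24 in exposed and at 10.07, 10.16 and 10.19 in unexposed arrays, so its groups were barely apart. IPO11 was at 0.04. The receptors with negative values lay between -0.14 and -0.05. They were KPNB1, IPO5 (-0.11), the histone importin IPO4 (-0.08), TNPO1 (-0.08), which carries hnRNP proteins, IPO8 (-0.07), TNPO2 (-0.06) and TNPO3 (-0.05), which carries SR splicing factors. TNPO1 shows how tight some of these values were, with 10.11, 10.09 and 10.07 against 10.16, 10.17 and 10.16. A dimmer second probe set of IPO5 was at -0.16. Outside the rule RANBP6 (0.24) and the snRNP import adaptor SNUPN (0.21) had positive changes that did not pass (limma adjusted p = 0.149 and 0.165). The difference between IPO13 and the rest of its family was not tested.

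All 4 measured exportins had negative changes, beside 49.3% of all genes, and none passed, beside 3.06%. XPO6, which exports actin bound to profilin, was at 10.20, 10.23 and 10.26 in exposed and at 10.41, 10.46 and 10.44 in unexposed arrays. Arrays of a group lay close together and the groups were well apart. The change of -0.21 (SE 0.05) was the closest to a call among the 4 exportins of the rule (limma adjusted p = 0.0647). With ribosomal protein genes as the centre it was -0.11 (limma adjusted p = 0.399). CSE1L, the exportin that returns importin alpha to the cytoplasm, lies outside the symbol rule and had a like value of -0.19 (limma adjusted p = 0.0647), with 11.16, 11.15 and 11.21 in exposed and 11.36, 11.39 and 11.34 in unexposed arrays. XPO4 was at 7.03, 6.96 and 6.91 in exposed and at 7.14, 7.14 and 7.16 in unexposed arrays, a change of -0.17 (limma adjusted p = 0.219). XPO5, the exporter of microRNA precursors, had a change of -0.11, between -0.28 and 0.05, and its groups overlapped: exposed replicate 3, at 7.74, lay among the unexposed values of 7.77, 7.71 and 7.76. XPO7 was at -0.02. The exportin relative RANBP17, outside the rule, was dim and at 0.10.

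The Ran cycle was represented by 3 members, all with exposed arrays below unexposed arrays (13.8% of all genes were) and none past the threshold (3.06% were). RANGAP1, which makes Ran hydrolyse its GTP at the cytoplasmic face, was at 9.13, 9.07 and 9.08 in exposed and at 9.26, 9.21 and 9.38 in unexposed arrays, a change of -0.19 (interval -0.34 to -0.04, limma adjusted p = 0.152). RANBP1, which helps RANGAP1, was at 8.43, 8.39 and 8.30 in exposed and at 8.45, 8.53 and 8.53 in unexposed arrays. Its groups were barely apart, its change was -0.13 (limma adjusted p = 0.320), and its dimmer second probe set was at -0.05. RANBP3, a cofactor of nuclear export, was at -0.12 (limma adjusted p = 0.313). Outside the rule, the Ran importer NUTF2 (-0.10) and RANGRF (-0.13) did not pass.

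Together, 11 further genes of these role groups lie outside the symbol rule, and none of them passed, beside 3.06% of all genes. Of these, 4 had an unadjusted p under 0.05 with lower values, beside 10.2% of all genes, and 2 with higher values, beside 8.71%. In neighbouring pathways, 0 of 17 measured mRNA export genes passed in limma, with 3 at an unadjusted p under 0.05, all lower (10.2% of all genes). The smallest p among them in each direction were those of NXT2, part of the mRNA export receptor (-0.42, limma adjusted p = 0.0732), and THOC6 (0.21). Of 18 measured genes of the nuclear envelope and lamina 1 passed: TMEM43, a protein of the inner nuclear membrane, rose by 0.34 (SE 0.06, limma adjusted p = 0.0324), beside 1.4% of all genes. At an unadjusted p under 0.05 there were 7 lower and 3 higher genes, beside 10.2% and 8.71% of all genes. LMNB1, the lamin beneath the pores, was at 7.57, 7.35 and 7.71 in exposed and at 7.93, 8.01 and 7.97 in unexposed arrays, a change of -0.43 that did not pass (limma adjusted p = 0.0569). Of 7 measured SUMO enzymes 0 passed in limma, with 1 at an unadjusted p under 0.05, lower (10.2% of all genes), and the genes with the smallest p were SENP1 (-0.22) and SENP7 (0.26).

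**Figure D4:**
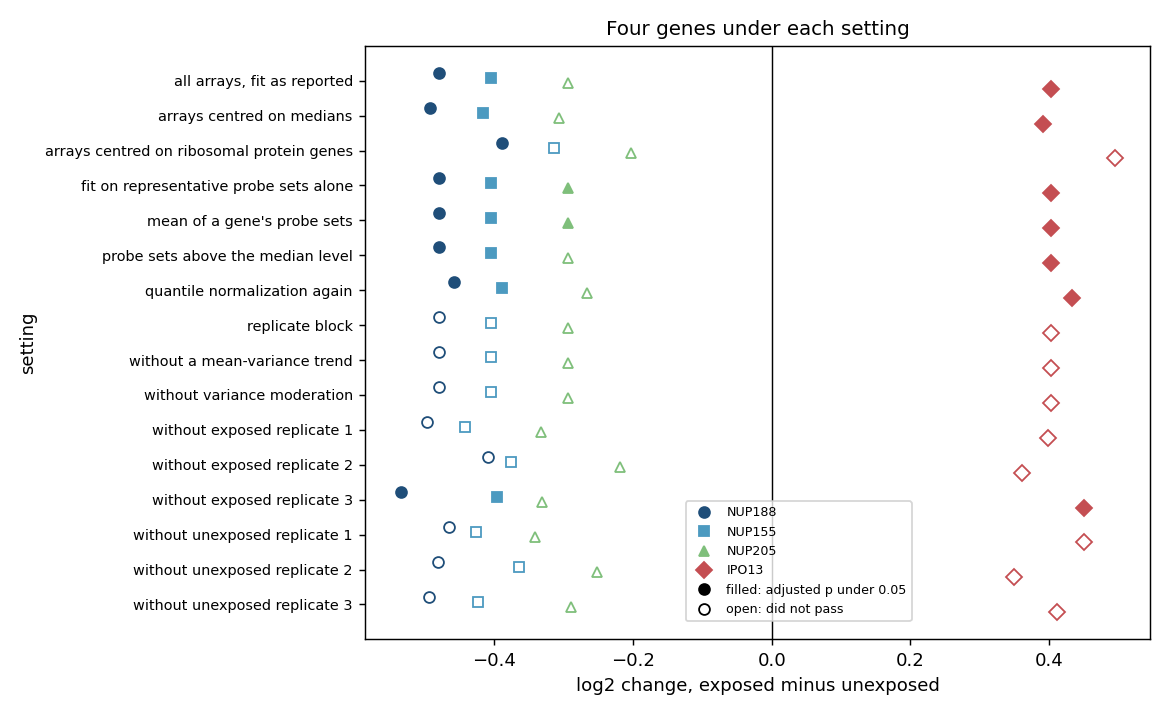
Log2 change (x axis) of NUP188, NUP155, NUP205 and IPO13 under each setting (y axis), filled where the adjusted p is under 0.05. Each gene keeps its sign in all settings shown, NUP188 between -0.53 and -0.39 and IPO13 between 0.35 and 0.49, while filled symbols are present in some settings alone. Settings that change only the variance model, the block or the fitted probe sets leave the log2 change as it is, by construction.

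With single arrays left out, NUP188 lay between -0.53 and -0.41, NUP155 between -0.44 and -0.36 and IPO13 between 0.35 and 0.45. Each kept its sign, while each call was lost when any of the 5 arrays other than exposed replicate 3 was left out. The limma adjusted p ran from 0.0297 to 0.120 for NUP188, from 0.0492 to 0.120 for NUP155 and from 0.0492 to 0.145 for IPO13.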

How the data were processed

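RNA of 3 exposed and 3 unexposed U-87 MG cultures was measured on arrays. Groups and replicate numbers come from the sample titles. The authors deposited log2 values per probe set made with RMA (background correction, normalization between arrays, summary), in Affymetrix Expression Console 3.0 and Transcriptome Analysis Console 3.0, per the submitters' processing notes. The sources used here do not give further settings. RMA makes arrays alike, so a change in RNA per cell is not visible. There are no detection calls, and 3 arrays a group limit the precision.

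Of 53617 probe sets, 16098 carried 1 gene symbol in the platform annotation, 0 several, and 37519 were unnamed here. Each of the 14884 genes is represented by its probe set with the highest mean over 6 arrays. All probe sets were fitted in limma (version 3.58.1, R 4.3.3), with variances moderated along a mean-variance trend and two-sided p, without covariates or filter, and p-values were adjusted by Benjamini-Hochberg over the 14884 genes. The threshold was 0.05. Intervals are 95%, from the fit. The procedure was also run on simulated data with independent noise in each probe set, which does not check calls among genes that vary together. Every measured member is named. Of other lists, genes past the threshold and the smallest p in each direction are named. Members and lists were chosen with earlier results of these data known. Alternatives were the replicate number as a block, 3 other normalizations, a filter on dim probe sets, 2 other variance models, 2 other ways to represent genes, and leaving out each array. Figures were drawn with matplotlib 3.10.9.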

Additional observations from a re-analysis of the deposited data

How the results depend on the processing

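The number of members past the threshold was 3, and 7 when probe sets of a gene were averaged or when representatives alone were fitted, which adds NUP205, NUP85, POM121 and XPO6. Without dim probe sets it was 4, over 47 members. It was 1 (NUP188) with ribosomal centring, and 0 with the replicate number as a replicate block, without a trend and without variance moderation (10, 10 and 18 members at an unadjusted limma p under 0.05). With each array left out it lay between 0 and 5. The count over all genes was 456, and 254 with ribosomal centring, 1209 with representatives alone, 1173 with averaged probe sets, 753 when dim probe sets were left out, 0 with the replicate block or without a trend (2286 and 2220 genes at an unadjusted limma p under 0.05), 4 without moderation, and 0 to 325 with an array left out. By role group, the inner ring count was 1 with ribosomal centring, 0 with the block, without a trend or moderation, and 0 to 2 with an array left out. That of importin beta receptors was 0 in those same settings and 0 to 1 with an array left out. Outer ring, membrane and exportin counts were 1 in place of 0 with averaged probe sets and with representatives alone, exportins also without dim probe sets, and the outer ring and membrane counts were 0 to 1 with an array left out. Over the other pathway genes the count was 1, and 12, 11 and 7 with representatives alone, averaged probe sets and no dim probe sets, 0 with the block, without a trend or without moderation, and 0 to 2 with an array left out.

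No label says that equal replicate numbers pair dishes, so the numbers were not taken as pairs. Deviations of same-numbered arrays over all probe sets had correlations of -0.0164, -0.0253 and 0.0096. Many of these probe sets are dim, so such correlations cannot exclude pairing. The block changed no member's log2 value. The members' median was -0.0210 with ribosomal centring and between -0.12 and -0.0773 with an array left out. Of 775 member values under 15 alternatives 36 changed sign, in 16 members, none of which passed. Many of the 775 could not change sign. Settings that change only the variance model, the block or the fitted probe sets leave every log2 change as it is. Averaging probe sets moves only genes that have several. The share of 36 in 775 therefore does not measure how stable the signs are. Ribosomal centring gave 12 of the 36: it shifts all genes alike and so turns small negative values by construction. These were IPO4 (0.0112), IPO8 (0.0206), KPNA3 (0.0501), KPNA4 (0.0607), NUP153 (0.0877), NUP214 (0.0172), NUP42 (0.0469), NUP62CL (0.0512), TNPO1 (0.0164), TNPO2 (0.0276), TNPO3 (0.0403) and XPO7 (0.0706), and outside the rule GLE1 (0.0188). With quantile normalization they were KPNA3 (0.0100), KPNA4 (0.0145), NUP153 (0.0392) and XPO7 (0.0028), and with median centring KPNA6 (-0.0033). With an array left out, ranges that span 0 were those of IPO11 (-0.0195 to 0.0780), IPO4 (-0.16 to 0.0550), KPNA3 (-0.0776 to 0.0042), KPNA4 (-0.0778 to 0.0127), KPNA5 (-0.33 to 0.13), KPNA6 (-0.0172 to 0.0446), NUP153 (-0.0901 to 0.0448), NUP42 (-0.14 to 0.0092), NUP62CL (-0.23 to 0.0553), RANBP2 (-0.0433 to 0.11) and XPO7 (-0.0537 to 0.0137). The causes were not tested.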
